A study of Mus musculus with 4 samples.

Results

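Lysosomal enzymes, lysosomal membrane proteins and subunits of the vacuolar proton pump were examined for binding of SHP (small heterodimer partner, gene Nr0b2) in the fed mouse intestine. The 52 genes were taken from a list of names, a rule that uses no peak value: 31 hydrolases and their activator proteins, 7 membrane proteins and 14 subunits of the vacuolar H+-ATPase (V-ATPase). All 52 were found among the 21887 protein-coding genes of the RefSeq annotation GRCm38.p6, the same coordinate system as mm10. A gene is called occupied here where the summit of a wild-type SHP peak lay within 5 kb of either end of the gene.

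Chromatin immunoprecipitation with sequencing (ChIP-seq) was performed with an SHP antibody (sc-30169) on jejunum and ileum. The mice were wild-type C57BL/6 animals and SHP-KO animals, which lack the SHP gene, 8 to 12 weeks old. Mice of both genotypes had been fasted for 12 h and refed normal chow for 4 h, so that no fasted group was compared. Per the labels, 3 sets of samples were analysed, each pooled from 3 mice, and 1 peak list for each genotype was used: 5775 peaks in wild type and 7 in knockout. With 1 list for each genotype there is no spread between replicates, and differences between groups of genes are given as counts and medians without a test. Read depth is unknown. The tissue label could not be checked against marker genes, since peak lists hold no expression, and the whole tissue holds epithelial, immune, muscle and nerve cells together.

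Lysosomes break down macromolecules, among them the lipid droplets delivered by autophagy. Their hydrolases work at acid pH, which the V-ATPase sets by pumping protons through its membrane sector V0, driven by ATP hydrolysis in its cytosolic sector V1. Many of these genes are activated by TFEB and its relatives, which bind the CLEAR element, a sequence built around the E-box CACGTG. SHP has no DNA-binding domain of its own and reaches chromatin through other transcription factors, where it mostly acts as a corepressor.

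SHP summits lay near 21 of the 52 lysosomal genes (40.4%, 95% exact binomial interval 27.0 to 54.9), against 26.4% of all protein-coding genes. The hydrolases and activators had 12 of 31 (38.7%, 21.9 to 57.8), the membrane proteins 3 of 7 (42.9%, 9.90 to 81.6) and the V-ATPase subunits 6 of 14 (42.9%, 17.7 to 71.1). The 3 classes thus had similar shares, with intervals that overlap widely, and only the interval over all 52 genes lay above 26.4%. The intervals cover counting error only, and genes are not independent replicates. The 21 occupied genes had 21 different peaks, so no peak was counted for more than 1 lysosomal gene. Within 1 kb of a gene end the counts were 20 of 52 (38.5%) and 20.7% of all protein-coding genes.

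**Figure D1:**
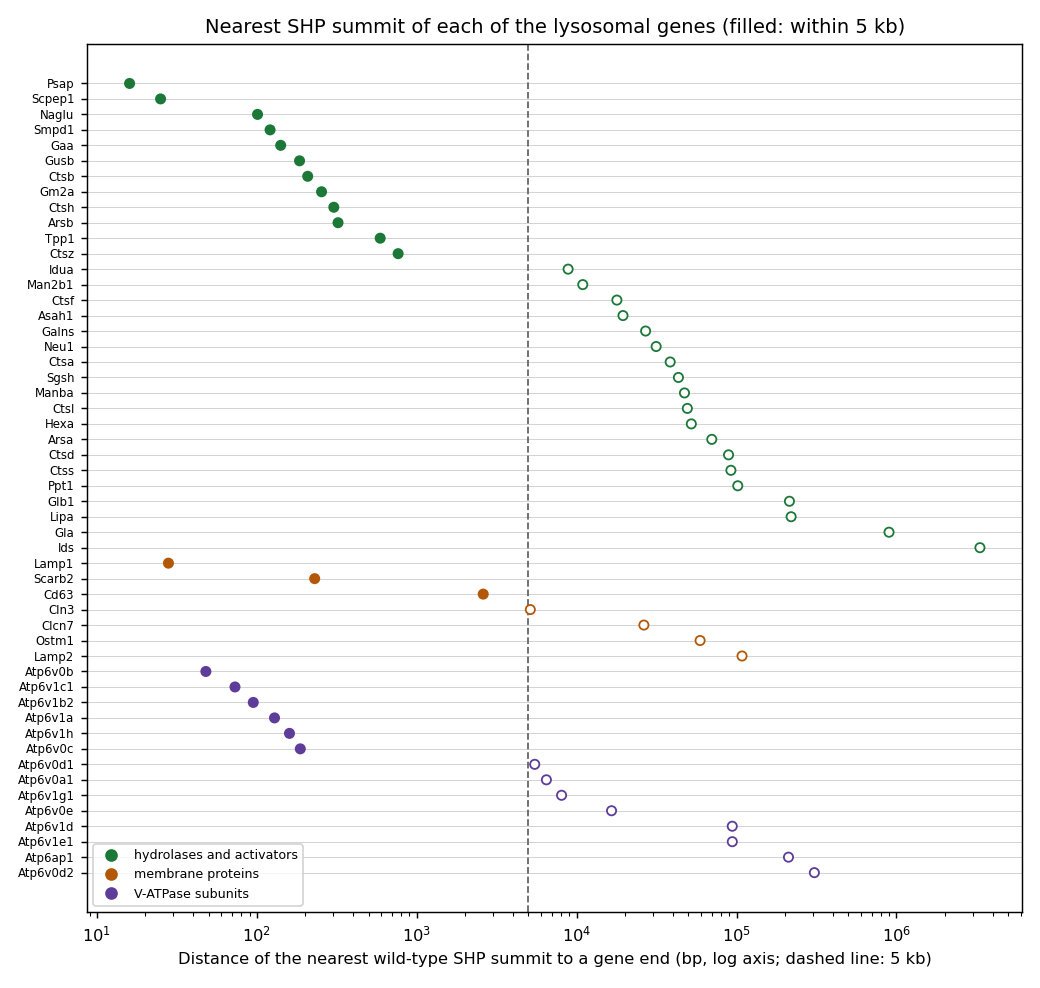
Distance from either gene end to the nearest wild-type SHP summit (bp, log axis) for each of the 52 lysosomal genes, coloured by class, with filled points within 5 kb. Occupied genes lie between 16 bp (Psap) and 2605 bp (Cd63), and the nearest of the other genes, Cln3, lies at 5134 bp.

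Among the hydrolases, the lysosomal proteases had 5 of 10 genes occupied, namely Scpep1, Ctsb, Ctsh, Ctsz and Tpp1. Scpep1, a serine carboxypeptidase, had the strongest of these peaks, with an enrichment value (the signal that the authors deposited for each peak, of unstated scale) of 8.31. Its peak was also the narrowest of the 21, 324 bp wide at chr11:88955241-88955564, and its summit lay 25 bp downstream of the gene start. The cathepsins Ctsb, an endopeptidase and dipeptidase (4.996), Ctsh, an aminopeptidase (4.86), and Ctsz, a carboxypeptidase (5.10), had weaker peaks with summits 208, 303 and 765 bp inside one end of the gene. Their peaks lay at chr14:63122221-63122968, chr9:90054348-90055055 and chr2:174437749-174438432, and that of Ctsz did not reach the gene start. No start was listed for Ctsb and Ctsh. All 3 values were below 5.73, the median over the 5778 occupied protein-coding genes. Tpp1, a tripeptidyl peptidase that is deficient in a form of neuronal ceroid lipofuscinosis, had a peak of 5.42 that lay 591 bp outside the gene and 8015 bp from its start. That summit was 155 bp from an end of Taf10, a subunit of the general transcription factor TFIID, and is therefore nearer to the neighbour than to Tpp1. No summit lay within 5 kb of the genes of cathepsins A, D, F, L and S. Ctsf (17857 bp), Ctsa (38476 bp) and Ctsl (49261 bp) were nearer to a summit than Ctsd (89171 bp) and Ctss (92255 bp).

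Glycosidases remove sugars from glycoproteins, glycolipids and glycosaminoglycans. Their occupied share was 30% (interval 6.67 to 65.2), close to the 26.4% of all protein-coding genes. Of the 10 glycosidases, 3 were occupied. These were Naglu, which acts on heparan sulfate (5.83, peak at chr11:101069792-101070656), Gaa, the acid glucosidase of glycogen breakdown (5.76, chr11:119267759-119268471), and Gusb, a glucuronidase (5.29, chr5:130002602-130003126). Their summits lay 97, 141 and 185 bp downstream of the gene start, and each peak covered that start. The other 7 were not occupied. Their nearest summits lay from 8849 bp (Idua, the iduronidase of glycosaminoglycan breakdown) and 10926 bp (Man2b1, a mannosidase) to 214315 bp (Glb1, the acid galactosidase) and 899258 bp (Gla, the galactosidase of Fabry disease). Neu1, a sialidase, Manba, a mannosidase, and Hexa, a hexosaminidase subunit, lay between, at 31433, 47278 and 52173 bp. The summit nearest to Idua belonged to a peak of 7.54 whose closest gene was Fgfrl1. Naglu and Gaa each had an E-box in the bases before the start, under the peak. The 250 bases before their starts in GRCm38.p6, from RefSeq, are shown on the coding strand, 5′ to 3′, with the E-box in capitals (chr11:101069844-101070093, plus strand, and chr11:119267713-119267962, plus strand).
Naglu: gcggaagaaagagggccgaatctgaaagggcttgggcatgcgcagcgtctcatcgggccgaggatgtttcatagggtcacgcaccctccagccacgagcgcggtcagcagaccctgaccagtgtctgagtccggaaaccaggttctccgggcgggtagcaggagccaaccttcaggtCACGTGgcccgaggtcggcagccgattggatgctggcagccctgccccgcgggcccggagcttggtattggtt
Gaa: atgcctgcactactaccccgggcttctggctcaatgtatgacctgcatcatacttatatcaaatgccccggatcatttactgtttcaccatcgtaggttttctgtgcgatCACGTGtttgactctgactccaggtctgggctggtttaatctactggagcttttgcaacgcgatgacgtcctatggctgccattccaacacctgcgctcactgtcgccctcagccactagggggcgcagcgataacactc
The E-box of Naglu began 73 bases and that of Gaa 140 bases before the start.

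Among the sulfatases 1 of 5 genes (20%, interval 0.505 to 71.6) and among the lipid-degrading enzymes 1 of 4 (25%, 0.631 to 80.6) were occupied, shares close to the 26.4% of all protein-coding genes. Arsb, which removes sulfate from dermatan and chondroitin sulfate (4.68, chr13:93771504-93772340, summit 322 bp inside the gene), was the only one of 5 sulfatases. Galns, Sgsh, Arsa and Ids, which act on keratan sulfate, heparan sulfate, sulfatide and iduronate sulfate, had their nearest summits 27013, 43323, 70042 and 3330457 bp away. Smpd1, the acid sphingomyelinase (5.04, summit 121 bp downstream of the start), was the only one of 4 lipid enzymes. Lipa, the acid lipase that hydrolyses cholesteryl esters and triglycerides delivered to lysosomes, had its nearest summit 219614 bp away, and Asah1, the acid ceramidase, and Ppt1, which removes fatty acids from proteins, had theirs at 19500 and 101827 bp. Both activator proteins were occupied (interval 15.8 to 100%, which includes 26.4%). Gm2a, which presents ganglioside to hexosaminidase, had a value of 7.70 with its summit 254 bp downstream of the start, and Psap, the precursor of the saposins, had 4.39 with its summit 16 bp downstream. The peak at Gm2a ranked 278 and that at Psap 5033 by enrichment value among the 5775 wild-type peaks.

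**Figure D2:**
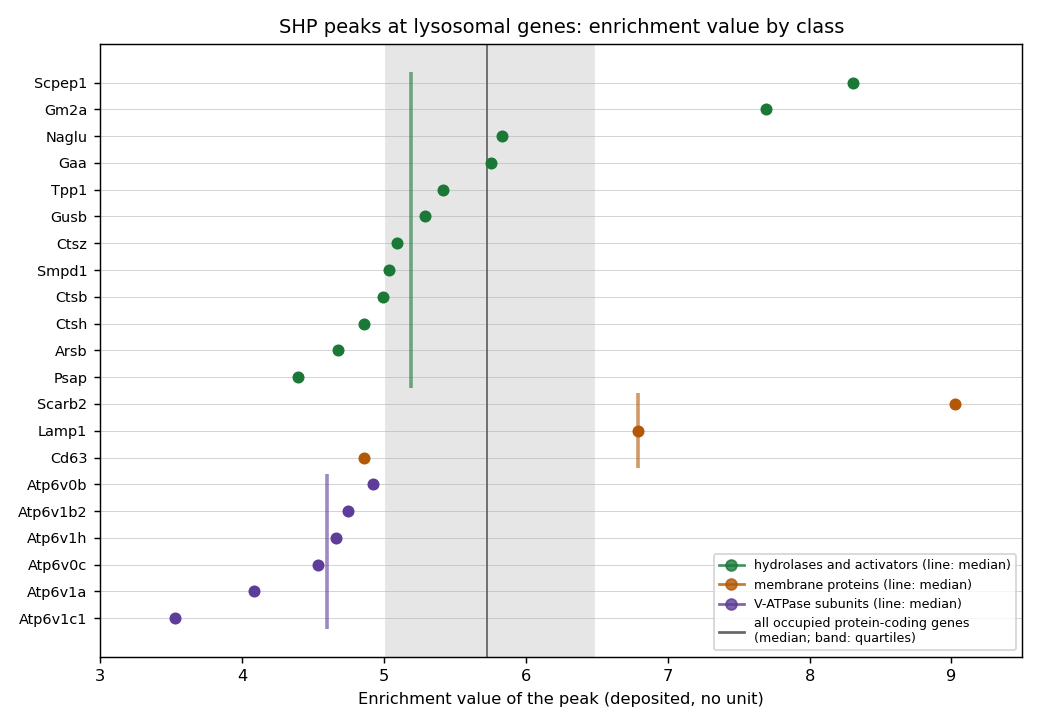
Enrichment value (deposited by the authors, no unit) of the strongest SHP peak within 5 kb of each occupied lysosomal gene, by class, with the class median as a coloured line. All 6 V-ATPase subunits lie below 5.73, the median of all occupied protein-coding genes (grey line), and Scarb2, Scpep1, Gm2a and Lamp1 lie above the grey band of the quartiles (5.01 to 6.48).

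The membrane proteins included the strongest peak and 1 of the weaker ones. Scarb2 (LIMP-2), the receptor that carries glucocerebrosidase to the lysosome, had the highest enrichment value of the 52 genes, 9.03, at rank 46 of 5775, in a peak at chr5:92505010-92505917 that covered the gene start. Lamp1, a glycoprotein of the lysosomal membrane, had a value of 6.79 in a 1319 bp peak at chr8:13158676-13159994, with its summit 28 bp downstream of the start. By −log10 p these were the highest of the members, at 27.4 for Scarb2 (rank 118) and 27.5 for Lamp1 (rank 116). Cd63, a tetraspanin of late endosomes and lysosomes, had a weaker peak of 4.86, 2605 bp inside one end of the gene and 872 bp downstream of its listed start. No summit lay within 5 kb of Lamp2, the receptor of chaperone-mediated autophagy, Clcn7 and Ostm1, which form a chloride-proton exchanger, or Cln3, a membrane protein of Batten disease. Their nearest summits lay at 108291, 26348, 59202 and 5134 bp, and that of Cln3 was closest to Eif3c, a translation factor gene. The promoter of Lamp1 held 4 copies of the E-box, the most of any member, all under the SHP peak (chr8:13158911-13159160, plus strand, E-boxes in capitals).
Lamp1: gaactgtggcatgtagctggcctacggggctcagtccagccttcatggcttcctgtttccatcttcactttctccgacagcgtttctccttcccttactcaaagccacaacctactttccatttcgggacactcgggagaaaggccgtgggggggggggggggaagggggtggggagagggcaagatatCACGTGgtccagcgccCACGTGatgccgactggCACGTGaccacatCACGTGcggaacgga
The copies began 61, 45, 28 and 15 bases before the start.

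Of the 14 listed V-ATPase genes, 6 had a peak, each with an enrichment value below 5.73, the median of all occupied genes. By −log10 p, the peak of Atp6v0b (15.8) lay above the median of all occupied genes (15.4). In the cytosolic V1 sector 4 of 7 were occupied: Atp6v1b2 (4.75) and Atp6v1a (4.08), which form the catalytic ring, Atp6v1h (4.67), a regulatory subunit, and Atp6v1c1 (3.53), of the stalk that joins the sectors. In the membrane sector V0 2 of 6 were occupied, Atp6v0b (4.93) and Atp6v0c (4.53), both proteolipids of the rotating ring. Their summits lay 48 to 187 bp from a gene end, inside the gene for Atp6v0b, Atp6v1h, Atp6v0c and Atp6v1c1 and outside it for Atp6v1b2 and Atp6v1a. The widest of the 21 peaks was that of Atp6v0c, 1412 bp at chr17:24168392-24169803. The peak of Atp6v1c1, at chr15:38661736-38662553, had the lowest value of all members and ranked 5613 of 5775. Atp6v1a shared its peak with Naa50, an acetyltransferase gene, whose end was nearer to the summit (40 bp against 129 bp). Atp6v0b and Atp6v1b2 also had a neighbour within 5 kb of the summit, but were themselves nearer. Atp6v0b was the only member with 2 peaks within 5 kb, of which the stronger is described. The peak of Atp6v0b, at chr4:117886766-117887646, covered the start and a pair of E-boxes just before it, which are shown from the minus strand (chr4:117887330-117887579).
Atp6v0b: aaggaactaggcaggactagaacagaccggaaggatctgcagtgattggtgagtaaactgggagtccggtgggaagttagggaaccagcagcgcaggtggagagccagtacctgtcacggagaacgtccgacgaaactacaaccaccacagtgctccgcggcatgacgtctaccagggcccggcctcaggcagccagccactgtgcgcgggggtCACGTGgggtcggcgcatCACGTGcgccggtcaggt
These began 36 and 18 bases before the start.

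The remaining 8 V-ATPase genes were Atp6v0d1, Atp6v0d2, Atp6v0a1, Atp6v0e, Atp6v1d, Atp6v1e1, Atp6v1g1 and the accessory protein Atp6ap1. Of these, 3 lay just beyond the window, with summits at 5471 bp (Atp6v0d1), 6472 bp (Atp6v0a1) and 8052 bp (Atp6v1g1) from a gene end. The other 4 besides Atp6v0d2 had theirs at 16536 bp (Atp6v0e), 94060 bp (Atp6v1d), 94138 bp (Atp6v1e1) and 211398 bp (Atp6ap1). The summit nearest to Atp6v0a1 was that of the neighbouring lysosomal gene Naglu. Atp6v0d2, an isoform with restricted expression that is known from osteoclasts, had its nearest summit 306881 bp away. Among all 31 lysosomal genes without a peak, the nearest summit lay at a median of 49261 bp (range 5134 to 3330457), against 131894 bp over all 16109 unoccupied protein-coding genes. Just outside the 5 kb limit were Cln3 (5134 bp) and Atp6v0d1 (5471 bp). The occupied members with the farthest summits were Cd63 (2605 bp) and Ctsz (765 bp), so that no member lay between 2605 and 5134 bp. The farthest were Ids (3330457 bp), Gla (899258 bp) and Atp6v0d2. No summit lay deep inside any of the 52 genes, more than 5 kb from both ends. Short genes such as Atp6v0b (3004 bp) could not hold one, and the same count over all protein-coding genes was not made.

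Both of the farthest hydrolases, Gla and Ids, are on the X chromosome, as are Lamp2 and Atp6ap1, and none of the 4 X-linked members was occupied (95% exact interval 0 to 60.2%). The wild-type list held 36 peaks on the X chromosome, 0.623% of all, and only 19 of 966 protein-coding genes there were occupied (1.97%). The lack of peaks at these 4 genes is therefore shared with nearly the whole chromosome. Among autosomal genes the shares were 21 of 48 lysosomal genes (43.75%) and 27.9% of protein-coding genes.

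**Figure D3:**
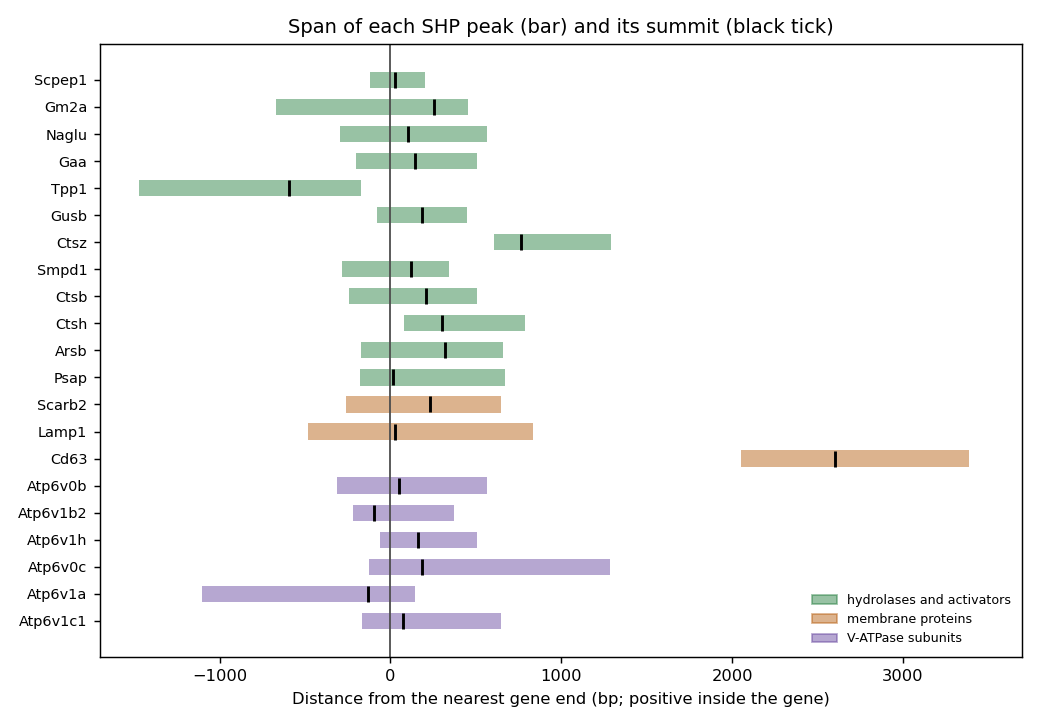
Span of the SHP peak (bar) and its summit (black tick) at each of the 21 occupied lysosomal genes, as distance in bp from the nearest gene end, with positive values inside the gene. In 18 of 21 genes the summit lies inside the gene, and all but Cd63 have it within 1 kb of the end.

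SHP summits at lysosomal genes lay close to gene starts and mostly just inside the gene. The summit was within 1 kb of an end at 20 of 21 occupied members (95.2%), against 4302 of 5778 occupied protein-coding genes (74.5%), and inside the gene at 18 of 21 (85.7%) against 64.7%. The median distance from an end was 160 bp for the members and 270 bp for all occupied genes. RefSeq start sites were listed for 16 of the 21 occupied members. The summit lay within 1 kb of a start in 15 of these 16 (93.75%, the exception being Tpp1), against 74.5% over 4663 occupied genes with a listed start. It was downstream of the start in 14 of 16 (87.5%), against 66.4% over the 4663 occupied genes. The 2 members with it upstream were Atp6v0c (at -41 bp) and Atp6v1a (at -572 bp). Another protein-coding gene had an end within 5 kb of the same summit for 7 of 21 members (33.3%), against 45.1% of all occupied genes, and in 2 of these 7, Tpp1 and Atp6v1a, the neighbour was the nearer gene.

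Peaks at lysosomal genes were weaker and narrower in the median than peaks at protein-coding genes as a whole. The median enrichment value was 4.996 over the 21 occupied members (order-statistic 95% interval 4.68 to 5.76) and 5.73 over all 5778 occupied genes, and 15 of 21 members lay below the latter. By class the medians were 5.19 for 12 hydrolases and activators, 6.79 for 3 membrane proteins and 4.60 for 6 V-ATPase subunits, of which all 6 lay below 5.73. The median width was 837 bp (interval 684 to 1125) against 1006 bp, and the median −log10 p was 12.9 (12.0 to 16.3) against 15.4. These intervals, and that of the enrichment value, include the medians of all occupied genes. Several values recur exactly, as at Ctsh and Cd63, which both had 4.85854 and a −log10 p of 12.2, so that small differences in rank carry no information.

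The higher share at lysosomal genes rested mostly on weaker peaks. Of the 21 member peaks, 11 (52.4%) had a −log10 p between 10.4 and 13.1, the 10th and 30th percentiles of the wild-type list, against 18.6% of the peaks at all occupied genes. This range was not set in advance, and its lower limit lies just below the lowest member value, 10.432 at Atp6v1a. With the weakest 30% of the list by −log10 p left out, 10 of 52 members (19.2%) had a peak, and the share was 0.966 times that of all protein-coding genes, compared with 1.53 times in the full list. With the weakest 50% left out, 7 of 52 members (13.5%, 95% exact interval 5.59 to 25.8) and 14.8% of all protein-coding genes had one. These 7 were Scarb2, Lamp1, Gm2a, Naglu, Scpep1, Gaa and Atp6v0b. At 80% left out, 5 of 52 members (9.62%) and 6.15% of all protein-coding genes had one, a ratio of 1.56. With the weakest 90% left out, 3 of 52 members, Lamp1, Scarb2 and Gm2a, had a peak (5.77%, interval 1.21 to 15.9), against 3.09% of all protein-coding genes, a ratio of 1.87 that rests on 3 genes. At the 75th percentile of the enrichment value or above, 0 of 14 V-ATPase subunits (95% exact interval 0 to 23.2%), 2 of 31 hydrolases and activators and 2 of 7 membrane proteins had a peak, against 6.89% of all protein-coding genes. The read depth behind these peaks is unknown, so how many of the weaker peaks a deeper library would hold cannot be said.

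**Figure D4:**
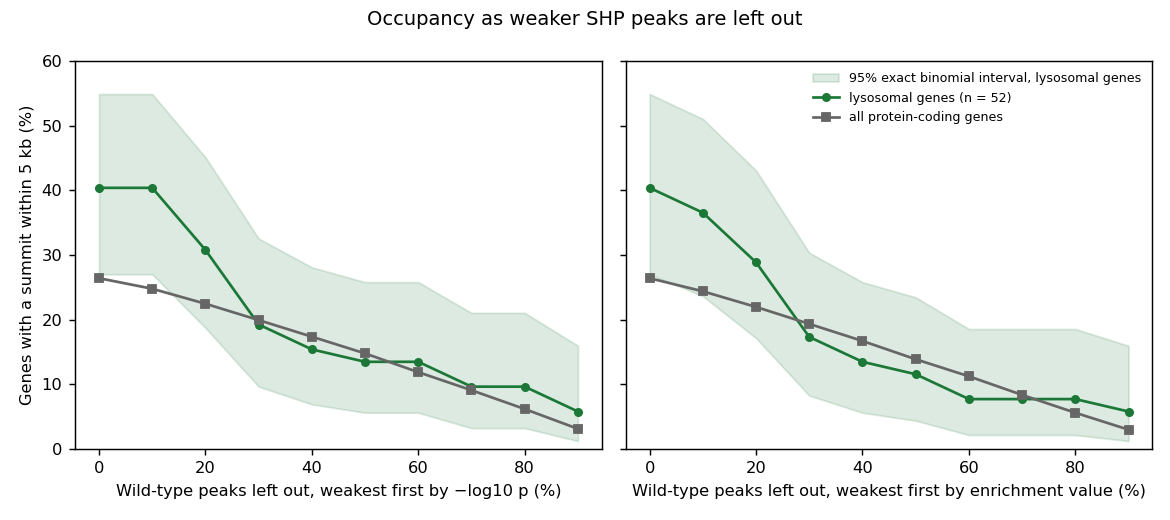
Share of genes with a wild-type SHP summit within 5 kb (%) as peaks are left out, weakest first, by −log10 p (left) or enrichment value (right), for the 52 lysosomal genes (green, with the 95% exact binomial interval) and all protein-coding genes (grey). Both green lines start at 40.4% against 26.4% and lie below the grey line from 30% to 50% of peaks left out (19.2% against 19.9% on the left and 17.3% against 19.3% on the right at 30%). They lie above it again from 60% on the left and from 80% on the right, and from 20% on the grey line lies within the green interval throughout.

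The E-box CACGTG was found more often in the promoters of these lysosomal genes than in promoters as a whole, both at occupied and at unoccupied genes. RefSeq promoters of 300 bases (250 before and 50 after the start, GRCm38.p6) were listed for 43 of the 52 members (82.7%) and 17492 protein-coding genes (79.9%). The members with no entry were Ctsb, Ctsh, Galns, Asah1, Atp6v0d2, Atp6v1b2, Atp6v1c1, Atp6v1g1 and Atp6v1h. The E-box, whose letters are the same on both strands, was found in 15 of 43 promoters (34.9%, 95% exact interval 21.0 to 50.9), against 7.91% of all protein-coding promoters. By class it was found in 9 of 27 promoters of hydrolases and activators, 2 of 7 of membrane proteins and 4 of 9 of V-ATPase subunits. In a list of 77 other lysosome genes, of which 60 had an entry, it was found in 9 promoters (15%, interval 7.10 to 26.6). Of the members with an E-box, 5 of 15 were occupied (Lamp1, Naglu, Gaa, Atp6v0b and Atp6v1a), and of those without, 11 of 28 (33.3% and 39.3%, with intervals of 11.8 to 61.6 and 21.5 to 59.4). These counts leave out 5 occupied and 4 unoccupied members with no entry. Among all protein-coding genes the occupied shares were 36.6% with and 25.8% without the E-box. The 10 unoccupied members with an E-box were Ctsd, Ctsf, Ctsl, Gla, Glb1, Sgsh, Arsa, Clcn7, Atp6v0d1 and Atp6v0e.

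The longer core TCACGTGA, which contains the E-box and is likewise the same on both strands, was found in 6 of 43 member promoters (13.95%), 7 of 60 promoters of other lysosome genes (11.7%) and 1.25% of all. These were Ctsd, Gla, Clcn7, Atp6v0d1, Atp6v0e and Atp6v1a. Of these, only Atp6v1a was occupied. Its peak (chr16:44139561-44140807) covered the annotated end of the gene at 44139702. The listed start lies inside the gene, and the peak lay upstream of it, outside the listed promoter. The copies that lie wholly before the start are shown with up to 20 bases on each side, the core in capitals, to set the occupied gene beside unoccupied ones. All are on the minus strand of GRCm38.p6 (chr16:44139364-44139411, chr7:142387899-142387946 and chrX:134601173-134601253).
Atp6v1a: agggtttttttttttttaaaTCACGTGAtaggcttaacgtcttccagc
Ctsd: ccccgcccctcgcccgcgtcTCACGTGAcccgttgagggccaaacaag
Gla: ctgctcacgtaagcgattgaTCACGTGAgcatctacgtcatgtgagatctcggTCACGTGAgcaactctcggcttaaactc
Gla, with a pair of cores, is on the X chromosome, where few genes had a peak. A match of letters is a description and does not show that a factor binds there.

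**Figure D5:**
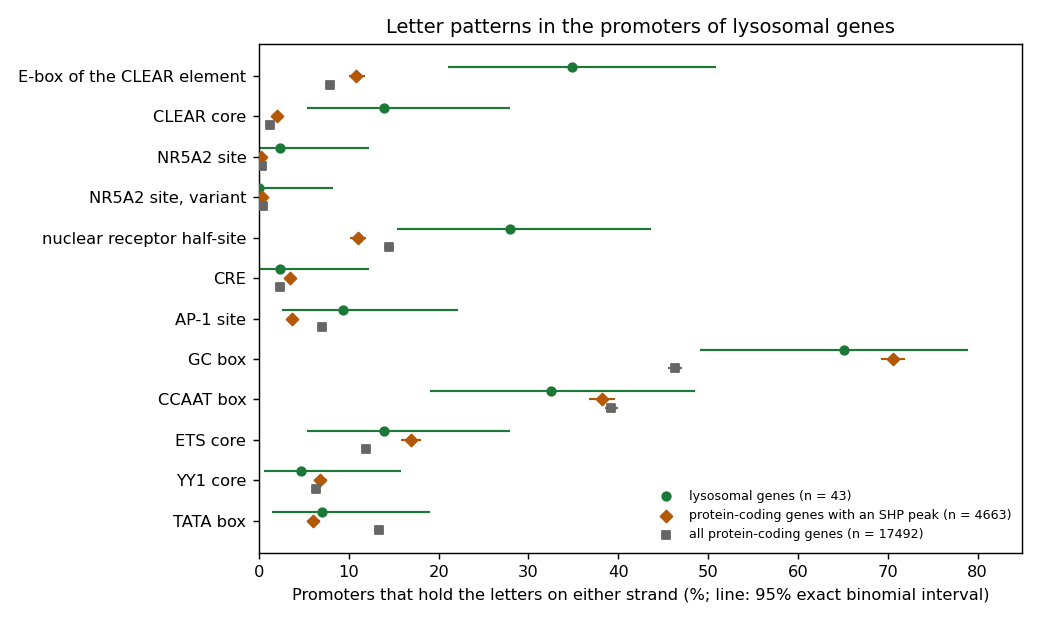
Share of promoters (%) that hold each of 12 letter patterns on either strand, for the 43 lysosomal genes with a listed promoter (green), all occupied protein-coding genes (orange) and all protein-coding genes (grey), with 95% exact binomial intervals. The E-box stands at 34.9% in lysosomal genes, 10.9% in occupied genes and 7.91% in all.

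For the other letter patterns, the interval over lysosomal promoters included the share of all promoters, except for AGGTCA and the GC box GGGCGG, which lay above it. Sites of NR5A2 (LRH-1), a nuclear receptor partner of SHP, were searched as TCAAGGTCA and TCAAGGCCA on both strands. The first was found in 1 of 43 member promoters (2.33%, interval 0.0589 to 12.3) and 0.332% of all, so that its share rests on 1 gene, and the second in 0 of 43 and 0.497%. The shorter nuclear receptor core AGGTCA, which lies within TCAAGGTCA, was found in 12 of 43 (27.9%, interval 15.3 to 43.7) and 14.5% of all. All 12 were promoters of hydrolases or activators (12 of 27, 44.4%, interval 25.5 to 64.7), and it was found in 0 of 7 promoters of membrane proteins (up to 41.0%) and 0 of 9 of V-ATPase subunits (up to 33.6%). By occupancy, AGGTCA was found in 5 of 16 occupied and 7 of 27 unoccupied members. Over all protein-coding genes it was found in 11.0% of occupied and 15.7% of unoccupied promoters. The GC box GGGCGG was found in 28 of 43 (65.1%, interval 49.1 to 79.0) and 46.3%, and in 70.6% of the promoters of all occupied genes. CCAAT was found in 14 of 43 (32.6%, interval 19.1 to 48.5) and 39.2%, and TATAAA in 3 of 43 (6.98%, 1.46 to 19.1) and 13.3%. The ETS core CCGGAAG was found in 6 of 43 and 11.9%, and the YY1 core AAGATGG in 2 of 43 (interval 0.568 to 15.8) and 6.35%. The CRE TGACGTCA was found in 1 of 43 and 2.33% of all, and the AP-1 site TGANTCA in 4 of 43 and 7.03%.

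The promoters of lysosomal genes also had a higher median CpG count than those of protein-coding genes as a whole. It was 16 per 300 bases (quartiles 9.5 to 21) against 13 (4 to 24), so the upper quartile was lower. The median GC content was the same (56.3% in both). Over all protein-coding genes, occupied promoters had a median of 24 CpG and unoccupied ones 8. Restricted to genes with at least 10 CpG in the listed promoter, 13 of 32 lysosomal genes were occupied (40.6%, interval 23.7 to 59.4). The share of protein-coding genes was 4105 of 10008 (41.02%). This limit was chosen after the data were seen. In that comparison the lysosomal genes were thus not above the others. Genes with fewer CpG are left out of it, among them the occupied members Tpp1, Gusb and Cd63. Whether CpG content accounts for the higher share was not tested. Before this restriction, 16 of 43 lysosomal genes (37.2%) and 26.7% of protein-coding genes with a listed promoter were occupied. Among the members with an entry, the median was 20 CpG in 16 occupied and 15 in 27 unoccupied promoters, and the median GC content 60.5% and 55.0%. Since only 76.2% of the occupied members had an entry, this split is void as a check of composition.

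Other genes of the lysosome, from a list of 77 named by function, were occupied in 25 cases (32.5%, interval 22.2 to 44.1), against the same 26.4% of all protein-coding genes. They were 10 of 35 hydrolases and lumenal proteins, 8 of 21 membrane proteins, 3 of 11 V-ATPase genes and 4 of 10 genes of enzyme delivery. Their median enrichment value was 5.80, above the 4.996 of the lysosomal genes described here and close to the 5.73 of all occupied genes. The 6 highest were Gpcpd1, a phosphodiesterase of choline metabolism (7.95), Tpcn2, a cation channel of the lysosomal membrane (7.77), Laptm4a, a membrane protein of late endosomes (7.61), Npc1, the lysosomal cholesterol exporter (7.53), Grn, the progranulin precursor (7.13), and Laptm4b (6.79). Gpcpd1 stands in the list as a lipid enzyme, and whether it works in lysosomes was not checked. The peak of Grn lay 1887 bp from the gene and nearer to Fam171a2. Over all 25 V-ATPase genes in both lists, 9 were occupied (36.0%, interval 17.97 to 57.5). Of the other 11, these were Atp6v1c2 (6.46), Atp6v1f (6.11) and Atp6v1g2 (5.56), each with a higher value than any of the 6 subunits above. Only that of Atp6v1c2 was nearest to the gene itself. The peak of 6.11 lay 3677 bp from Atp6v1f and nearer to Atp6v1fnb (757 bp), while the summit 20 bp from an end of Atp6v1f had a value of 5.001. The peak of Atp6v1g2 was nearer to Nfkbil1 (229 bp against 1779 bp). Atp6v0a2, Atp6v0a4, Tcirg1, Atp6v0e2, Atp6v1b1, Atp6v1e2, Atp6v1g3 and Atp6ap2 had none within 5 kb.

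In the knockout list, 0 of the 52 lysosomal genes had a summit within 5 kb (95% exact interval up to 6.85%) or within 50 kb. The nearest knockout summit to any of them lay 730571 bp from Atp6v0c. Only 4 of the 21887 protein-coding genes had a knockout summit within 5 kb. Only 20 of the 52 lysosomal genes lay on a chromosome with any knockout peak, so a count of 0 carries little information. The knockout list held 7 peaks and was filtered in another way than the wild-type list, so the absence of knockout peaks at the 21 occupied genes cannot show how far their peaks depend on SHP.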

How the data were processed

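SHP ChIP-seq peak lists of wild-type and SHP-KO intestine were used, 1 for each genotype, without the inputs, which were not analysed here. CASAVA 1.4, BWA and mm10 are named in the submitters' processing notes. Which program called the peaks, and how the 3 sets were combined, is not given in the sources used here. Per the file names, the wild-type list was filtered at an irreproducible discovery rate of 0.05 and the knockout list was limited to overlapping peaks. The lists have no header and follow the narrowPeak layout. The enrichment value is column 7, a signal deposited by the authors. The deposited −log10 p (and q) values and scores are the authors' own as well, and scores and q were not used. All these values describe peaks within a list only.

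Summits were placed at column 2 plus column 10 plus 1 and compared with gene ends from the RefSeq table GRCm38.p6 on chromosomes 1 to 19, X and Y. For each gene the highest enrichment value within 5 kb was taken. Start sites and promoters came from RefSeq, with the start nearest to the 5′ end of the gene used for letters and the nearest listed start for distances. Shares carry exact (Clopper-Pearson) 95% intervals and medians order-statistic intervals. No test was run, since there are no replicate lists. The occupancy and letter searches were checked on simulated data. Python 3.11.15, numpy 2.4.6, pandas 2.3.3 and scipy 1.17.1 were used. The gene classes, the other lysosome genes and the letter patterns were chosen with earlier results of these data known. Every member is accounted for. Of the other lysosome genes, the 6 highest enrichment values and the V-ATPase genes were named. Promoters were printed, without the bases after the start, for occupied members whose peak covers a start with an E-box, up to 6 by enrichment value. The bases around the longer core were added after the data were seen. Alternatives changed the window, the use of the summit, the gene assigned and the peak threshold.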

Additional observations from a re-analysis of the deposited data

How the results depend on the processing

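The difference between the lysosomal genes and all protein-coding genes, 13.99 percentage points, kept its direction with a 1 kb window, a 50 kb window, any base of the peak, the gene start alone, the nearest gene only, peaks at or above the 75th percentile of the enrichment value and autosomal genes (0.807 to 22.96 points). It reversed to -1.30 points once the peaks below the median −log10 p were left out and to -0.392 points among genes with at least 10 CpG in the promoter, and the cause was not tested. The 0.807 points, at the 75th percentile of the enrichment value, rested on 4 of 52 members. At cuts by that value that left out 30% to 70% of peaks, the lysosomal share was 0.686 to 0.923 times that of all genes. The share of all protein-coding genes was 20.7% with 1 kb, 24.3% with the start alone, 20.99% with the nearest gene only, 27.9% on autosomes and 41.02% with at least 10 CpG. With 50 kb the shares were 71.2% for the lysosomal genes, 70.97% for hydrolases and activators, 71.4% for V-ATPase, 63.6% for other lysosome genes and 48.2% for all genes. At or above the median −log10 p they were 13.5%, 12.9%, 7.14%, 19.5% and 14.8%, and at or above the 75th percentile of the enrichment value 7.69%, 6.45%, 0%, 10.4% and 6.89%, in the same order. The median enrichment value of the lysosomal genes was 5.77 with 50 kb and 6.79 at or above the median −log10 p, where it lay above the 6.32 of all genes, the opposite of the main order. For all genes it was otherwise 5.64 with the nearest summit, 5.64 with 1 kb, 6.10 with 50 kb, 5.68 with the start alone and 5.68 with the nearest gene only. The E-box was found at 8.91% of all genes with any listed start and 6.65% with only the bases before the start, against 39.5% and 30.2% of the lysosomal genes. The autosomal, CpG and E-box alternatives were chosen after seeing the data. No paired analysis was possible because the labels give no replicate numbers and each genotype has 1 list, and for the same reason no replicate could be left out. Unknown read depth limits what an absent or weak peak can show.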
